A study of Mus musculus with 20 samples.

Results

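The translation initiation factors are described here as 51 genes, chosen as the rows of the count table whose symbol starts with Eif1 to Eif6 and whose counts over all libraries sum to at least 10, without Eif4e, Eif4e2, Eif4e3 and any pseudogene. The table holds 21780 genes, of which 15522 reached the same minimum and were tested, the 51 members among them. Of 55 symbols that start this way, the other 4 were the 3 eIF4E genes that the rule leaves out and Eif4e1b, which had 0 counts.

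Initiation factors bring the initiator tRNA, the small ribosomal subunit and the capped mRNA together and release the ribosome at a start codon. The factor eIF2 carries the initiator tRNA and is recharged with GTP by eIF2B, and kinases that phosphorylate the alpha subunit of eIF2 slow this exchange during stress, a step known in liver from fasting, infection and protein folding stress. The eIF4F helicase and scaffold proteins prepare the mRNA, eIF4E binding proteins hold the cap-binding protein in check, and eIF3 links the mRNA to the ribosome.

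Polyadenylated RNA from the livers of 20 male C57Bl/6J mice was sequenced in 4 groups of 5 mice. All mice ate a high-fat diet (HFD, 42% of energy from fat) from 8 weeks of age and received a single oral gavage at 10 weeks of age. HFD control mice received corn oil, HFD + Aroclor mice received Aroclor 1260 at 20 mg/kg, HFD + PCB 126 mice received PCB 126 at 20 µg/kg, and HFD + Aroclor + PCB 126 mice, called the combined exposure below, received both at these doses. Aroclor 1260 is a commercial mixture of mostly non-dioxin-like polychlorinated biphenyls (PCBs), and PCB 126 is a dioxin-like PCB that activates the aryl hydrocarbon receptor. The methods state that the diet lasted 12 weeks with the PCB present for 10 of them, and the sample labels give an exposure of 12 weeks. No group ate another diet, so nothing here speaks to the diet itself.

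The libraries held 21836506 to 36854887 counts each. Levels are given as CPM, counts scaled to the size of the library, or as FPKM, the same per kilobase of exon, where different genes are compared. The exon length of a gene is that of all its annotated exons together, so an order by FPKM depends on the annotation. Changes are log2 fold changes (log2FC), given ± the standard error, and a gene is said to be called, higher or lower, where its adjusted p fell under 0.05 in edgeR's quasi-likelihood test over the 15522 genes. All tests were two-sided. Of the exposure markers, Cyp1a2, a target of the aryl hydrocarbon receptor, stood at 387 ± 99.4 CPM (SD, n = 5) in HFD control, at 1590.2 ± 606 CPM with PCB 126 alone and at 775 ± 186 CPM with the combined exposure. Cyp1a1, the classic target of the same receptor, stood at 0.612 ± 0.284 CPM in HFD control, at 78.6 ± 134 CPM with PCB 126 alone, where single mice spanned 4.09 to 314 CPM, and at 1.32 ± 0.746 CPM with the combined exposure, which was not called against control (adjusted p = 0.502). The combined mice received the same labelled dose of PCB 126, and the marker Cyp1a1 thus does not bear out this label on its own, while Cyp1a2 was called higher (adjusted p = 0.00325). Cyp2b10, a target of the receptor that non-dioxin-like PCBs activate, was not called in any exposed group. Its mean was nonetheless higher with Aroclor (14.0 ± 10.7 CPM, log2FC 1.97, adjusted p = 0.222) than in control (3.54 ± 2.84 CPM). With PCB 126 alone it stood at 5.38 ± 3.90 CPM and with the combined exposure at 11.7 ± 8.98 CPM (log2FC 1.72, adjusted p = 0.0830). The libraries HFD control replicate 4 and HFD + Aroclor + PCB 126 replicate 4 stood apart from the others: 7 genes of the adrenal cortex, such as Star and Cyp11a1, summed to 2022 and 1734 CPM in them and to at most 4.00 CPM in the other 18 libraries, and 5 genes of the adrenal medulla to 1064 and 361 CPM against at most 0.387 CPM. Counts of members are therefore also given without these 2 libraries, and the counts of 0 called members for the single exposures, for the combined exposure against Aroclor and for the interaction stayed at 0 without them. The libraries also differed in how a gene's level related to the GC content of its transcript. This slope, in log2 CPM per 10 percentage points of GC, was 0.250 ± 0.181 (SD, n = 5) in HFD control, 0.00767 ± 0.0857 with Aroclor, 0.114 ± 0.204 with PCB 126 and −0.372 ± 0.201 with the combined exposure. The slopes of the control and the combined mice did not overlap (exact permutation test, p = 0.00794, the smallest that 252 splits can give, adjusted p = 0.0238 over 3 comparisons), the Aroclor slopes were lower than the control slopes (exact permutation p = 0.0238, adjusted p = 0.0357), and the PCB 126 slopes did not pass the test (exact permutation p = 0.286).

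With the combined exposure, 26 of the 51 initiation factor genes were called against HFD control, 12 higher and 14 lower. Genes called higher included 3 of the 4 eIF2 genes, which carry the initiator tRNA, and the start codon factors Eif1ax and Eif5, whereas 5 genes of eIF3, 3 of eIF2B, the eIF4E binding proteins Eif4ebp1 and Eif4ebp3, the ribosomal factor Eif6 and the exon junction helicase Eif4a3 were called lower. Of all tested genes, 32.8% were called in this comparison, 15.8% higher and 17% lower, against 51%, 23.5% and 27.5% of the members. The median log2FC was −0.0042 over the members and −0.0010 over all tested genes. In 16 members, 31.4%, the 5 combined mice lay wholly above or wholly below the 5 control mice, which held for 18.8% of all tested genes. Without the libraries that carried adrenal genes, 23 members were called, 22 of them as before, against 30.4% of the 15116 genes then tested. After correction for the GC slopes, 5 members were called, all lower (Eif3k, Eif3d, Eif3i, Eif4ebp1 and Eif2s1), against 8.8% of all genes (3.37% higher and 5.43% lower). The genes of the 4 that had also been lower before the correction lie at chr7:28971372-28981864, ENSMUSG00000053565 (Eif3k), chr15:77958998-77970813, ENSMUSG00000016554 (Eif3d), chr4:129591960-129600648, ENSMUSG00000028798 (Eif3i) and chr8:27260329-27276674, ENSMUSG00000031490 (Eif4ebp1) on GRCm38. Of the 26, 4 then kept their call and direction and 10 changed sign. Where GC content was averaged over all transcripts of a gene instead, 13 members were called, 2 higher and 11 lower, beside 1932 of the 15522 genes then tested, and 10 of the 26 kept their call and direction. Leaving out the single library HFD + Aroclor + PCB 126 replicate 4 left 17 members called, 4 of them higher, and leaving out HFD control replicate 2 left 7 higher. The share of all genes called in those fits is not given here. In bulk liver, fewer cells of a type and less RNA per cell cannot be told apart.

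**Figure D1:**
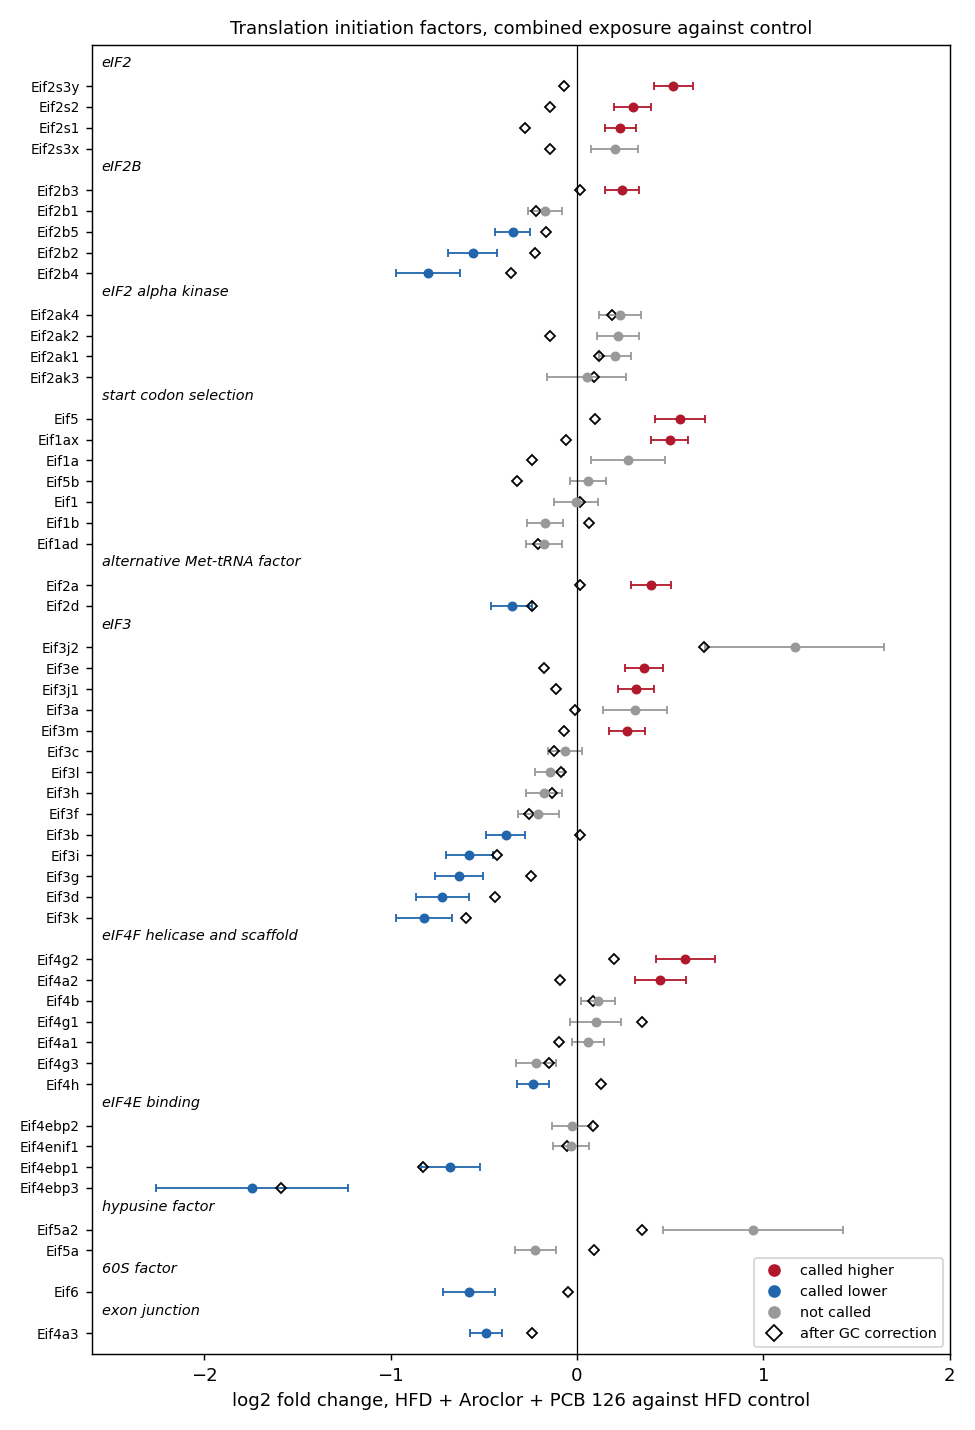
Log2 fold change of each of the 51 members (rows, grouped by role) in 5 HFD + Aroclor + PCB 126 mice against 5 HFD control mice, with standard errors as bars. Red and blue circles are called higher (12) and lower (14), grey circles are not called (25), and open diamonds show the same fold change after GC correction, where no member is called higher.

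The 4 members with the smallest adjusted p and a promoter in the RefSeq table were Eif4a3, Eif3k, Eif3d and Eif1ax, and their promoters are shown as those of the members with the strongest evidence before GC correction. After it, Eif4a3 and Eif1ax were no longer called. Each window of 300 bases around the RefSeq start is given on GRCm38.p6, 5′ to 3′ on the strand of the gene. Capitals mark the core of the response element of the aryl hydrocarbon receptor, GCGTG, the E-box CACGTG, and the element of the stress factor ATF4, TGATGNAA, each searched on both strands. No such motif contains another.
Eif4a3 (chr11:119299994-119300293, minus strand): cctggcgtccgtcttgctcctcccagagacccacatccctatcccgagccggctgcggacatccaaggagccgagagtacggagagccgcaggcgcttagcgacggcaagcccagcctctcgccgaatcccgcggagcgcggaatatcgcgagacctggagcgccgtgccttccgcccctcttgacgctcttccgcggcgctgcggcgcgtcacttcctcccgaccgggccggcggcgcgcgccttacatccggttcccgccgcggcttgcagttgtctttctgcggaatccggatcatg
Eif3k (chr7:28981839-28982138, minus strand): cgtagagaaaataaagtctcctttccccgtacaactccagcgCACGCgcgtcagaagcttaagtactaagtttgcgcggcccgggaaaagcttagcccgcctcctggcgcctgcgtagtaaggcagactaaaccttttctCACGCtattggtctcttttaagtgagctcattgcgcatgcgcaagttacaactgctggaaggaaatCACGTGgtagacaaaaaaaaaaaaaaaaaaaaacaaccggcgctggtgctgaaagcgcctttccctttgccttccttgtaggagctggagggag
Eif3d (chr15:77970775-77971074, minus strand): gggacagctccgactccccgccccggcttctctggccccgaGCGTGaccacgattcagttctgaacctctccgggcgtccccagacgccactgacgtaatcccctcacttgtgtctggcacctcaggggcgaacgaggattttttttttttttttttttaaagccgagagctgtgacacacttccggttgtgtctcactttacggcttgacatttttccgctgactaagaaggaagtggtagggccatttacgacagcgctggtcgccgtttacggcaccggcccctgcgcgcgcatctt
Eif1ax (chrX:159371928-159372227, plus strand): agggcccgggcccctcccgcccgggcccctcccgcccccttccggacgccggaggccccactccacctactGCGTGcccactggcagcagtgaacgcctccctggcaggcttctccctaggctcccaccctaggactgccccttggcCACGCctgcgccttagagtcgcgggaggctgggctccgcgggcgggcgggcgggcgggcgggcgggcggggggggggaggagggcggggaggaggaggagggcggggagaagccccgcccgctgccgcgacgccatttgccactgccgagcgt
Eif3k, which was lower, held GCGTG at 2 places and CACGTG at 1, Eif3d, also lower, held GCGTG at 1 place, Eif1ax, which was higher, held GCGTG at 2, and Eif4a3 held none of the 3 motifs. RefSeq promoters were matched for 41 of the 51 members, 51 windows in all. GCGTG stood in 34 of these windows (66.7%) and in 32.4% of all 32851 windows of the table, CACGTG in 11 (21.6%) and 7.15%, and TGATGNAA in 1 (1.96%, Eif2s3x) and 3.97%. GCGTG stood near 8 of 9 members called higher that had a promoter, near 7 of 10 called lower and near 13 of 22 not called. CACGTG stood near 0, 2 and 7 of them. The median promoter GC content was 65.3% for those called higher, 56.3% for those called lower and 62.3% for those not called. That of all windows of the table is not given here, so these shares are not compared at a like base composition. A match to these letters is a description of the window and not a binding site.

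In eIF2, the carrier of the initiator tRNA, 3 of 4 genes were called higher with the combined exposure. Eif2s3y, the Y-linked gene of the gamma subunit, stood at 61.3, 63.6, 45.7, 66.8 and 57.7 CPM in the 5 HFD control mice and at 74.3, 85.4, 74.4, 97.0 and 91.2 CPM in the 5 combined mice. Every combined mouse lay above every control mouse. The Aroclor mice spanned 60.1 to 75.8 CPM, with values in both ranges, and the PCB 126 mice spanned 60.9 to 71.01 CPM, all below the combined mice. The change with the combined exposure was log2FC 0.52 ± 0.10, adjusted p = 0.00169. After GC correction this log2FC was −0.0705 (adjusted p = 0.782). Eif2s3x, its X-linked partner, was not called (log2FC 0.20 ± 0.12, adjusted p = 0.227). Per kilobase of exon, Eif2s3y was the highest eIF2 gene in control liver, with 14.2 ± 1.96 FPKM (SD, n = 5). Eif2s3x stood at 3.11 ± 0.423 FPKM, and the ratio of Eif2s3y to Eif2s3x in single control mice was 3.33 to 5.67. Between them, Eif2s2 (8.70 ± 1.05 FPKM) and Eif2s1 (8.38 ± 0.772 FPKM) did not differ beyond their spread. In CPM, Eif2s3y (59.0) and Eif2s2 (58.8) were alike in control, and their annotated exon lengths were 4161 and 6755 bases. The order of these 2 genes in FPKM thus rests on the annotated length.

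Eif2s1 encodes the alpha subunit, the target of the stress kinases. It measured 36.1, 40.2, 46.03, 44.04 and 41.1 CPM in the control mice and 49.2, 51.6, 43.3, 49.6 and 49.9 CPM in the combined mice. In the combined group 4 mice lay above all control mice and replicate 3 lay among them. The change was small (log2FC 0.23 ± 0.083, adjusted p = 0.0377), was called in 3 of the 10 fits that left out a mouse, and after GC correction the sign turned to a called −0.28 (adjusted p = 0.0267). Eif2s2, the beta subunit, was also called higher (log2FC 0.30 ± 0.10, adjusted p = 0.0236), in 6 of the 10 fits, with −0.15 after GC correction.

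In eIF2B, the exchange factor that reloads eIF2, 3 of 5 subunit genes were called lower and 1 higher. Eif2b4, the regulatory delta subunit, fell from 32.2, 32.4, 38.5, 32.2 and 35.6 CPM in the control mice to 24.03, 19.2, 25.7, 12.4 and 16.9 CPM in the combined mice, log2FC −0.80 ± 0.17, adjusted p = 0.00228. The groups did not overlap, and replicate 4 of the combined group, which carried adrenal genes, was the lowest. With Aroclor the mice spanned 26.3 to 30.04 CPM, all below the control mice, and with PCB 126 they spanned 20.8 to 40.04 CPM, from below the lowest to above the highest control. Eif2b4 overlaps the gene Snx17 on the opposite strand by 204 exon bases, as 11 members overlap some gene of the table on the opposite strand. Whether the counting used strand is not given in the sources used here, so reads of such pairs may not have been told apart.

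Eif2b2, the beta subunit, stood at 15.6, 12.2, 15.03, 11.5 and 12.6 CPM in the control mice and at 10.9, 9.71, 10.5, 7.09 and 7.27 CPM in the combined mice, with no overlap (log2FC −0.56 ± 0.13, adjusted p = 0.00358). Eif2b5, the catalytic epsilon subunit, stood at 56.7, 58.4, 62.2, 54.2 and 54.3 CPM and at 48.3, 50.2, 46.6, 38.3 and 41.6 CPM, again with no overlap (log2FC −0.34 ± 0.093, adjusted p = 0.00788). Both kept their sign after GC correction, at −0.23 and −0.17, and neither was then called (adjusted p = 0.139 and 0.185). Eif2b3, the gamma subunit that works with epsilon, was called higher (log2FC 0.24 ± 0.091, adjusted p = 0.0482) in only 2 of the 10 fits that left out a mouse, and without the adrenal-positive libraries its adjusted p was 0.167. Eif2b1, the alpha subunit, was not called (log2FC −0.17 ± 0.0901, adjusted p = 0.158). In control liver the order per kilobase of exon was Eif2b5 (22.02 ± 1.28 FPKM), Eif2b4 (13.1 ± 1.09), Eif2b1 (11.2 ± 0.760), Eif2b2 (7.10 ± 0.963) and Eif2b3 (2.03 ± 0.125). With the combined exposure Eif2b4 (7.56 ± 2.08 FPKM) came after Eif2b1 (9.97 ± 1.27 FPKM).

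None of the 4 kinases of the eIF2 alpha subunit was called with the combined exposure by edgeR. Eif2ak3, the kinase PERK of the endoplasmic reticulum, measured 9.64, 11.9, 12.2, 11.6 and 21.8 CPM in control, 15.96, 10.8, 16.6, 19.6 and 24.97 CPM with Aroclor and 13.95, 16.4, 13.01, 13.1 and 13.04 CPM with the combined exposure. The control mice were close together apart from replicate 5, the Aroclor mice spanned the widest range, the PCB 126 mice lay at 8.21 to 14.1 CPM, and all groups overlapped (log2FC 0.052 ± 0.21, adjusted p = 0.884 for the combined exposure and log2FC 0.39 ± 0.21, adjusted p = 0.329 for Aroclor). Eif2ak1, the heme-regulated kinase HRI, was the most abundant of the 4 per length (11.7 ± 0.308 FPKM in control), and its combined mice (71.7 to 82.8 CPM) all lay above its control mice (63.5 to 68.1 CPM), although the change did not reach the threshold (log2FC 0.21 ± 0.086, adjusted p = 0.0721). Eif2ak2, the double-stranded RNA kinase PKR (log2FC 0.22 ± 0.11, adjusted p = 0.142), and Eif2ak4, the amino acid sensor GCN2 (log2FC 0.23 ± 0.11, adjusted p = 0.127), were not called either.

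Of the 7 genes for start codon selection and its relatives, Eif1ax and Eif5 were called higher. Eif1ax, which encodes the scanning factor eIF1A from the X chromosome, rose from 28.4, 28.8, 36.99, 36.3 and 34.4 CPM in the control mice to 46.8, 46.3, 40.4, 48.5 and 50.4 CPM in the combined mice, log2FC 0.50 ± 0.10, adjusted p = 0.00151. No combined mouse overlapped a control mouse. The Aroclor mice (38.2 to 43.2 CPM) also lay above all control mice, but log2FC 0.30 ± 0.10, adjusted p = 0.198, did not pass the threshold. After GC correction the combined log2FC was −0.0597 (adjusted p = 0.563). Its transcript has the low GC content of 39.7%.

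Eif5, the protein that triggers GTP hydrolysis by eIF2, spanned 172 to 295 CPM in control and 301 to 390.4 CPM with the combined exposure, without overlap (log2FC 0.55 ± 0.13, adjusted p = 0.00441), and its log2FC was 0.10 after GC correction. Eif1, the gatekeeper of start codon recognition, was the most abundant member per length (152 ± 6.95 FPKM in control and 151 ± 16.04 FPKM with the combined exposure) and had the smallest change of all 51 (log2FC −0.0042 ± 0.12, adjusted p = 0.984). Eif1a (0.27), Eif1b (−0.17), Eif1ad, a nuclear relative of eIF1A (−0.18), and Eif5b, the GTPase of subunit joining (0.059), were not called, with adjusted p between 0.179 and 0.688. The control mice of Eif1a varied widely, over 27.01 to 65.5 CPM. Of the alternative factors for initiator tRNA, Eif2a was called higher (log2FC 0.40 ± 0.11, adjusted p = 0.00828) and Eif2d lower (log2FC −0.35 ± 0.11, adjusted p = 0.0172), and neither group pair was free of overlap.

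The 14 genes of eIF3, the largest initiation factor, were split by the combined exposure: 5 were called lower (Eif3k, Eif3d, Eif3g, Eif3i and Eif3b), 3 higher (Eif3e, Eif3j1 and Eif3m) and 6 were not called. Eif3k, a peripheral subunit, fell from 61.7, 54.6, 66.01, 55.6 and 55.98 CPM in the control mice to 39.8, 35.2, 38.5, 24.9 and 27.9 CPM in the combined mice, log2FC −0.82 ± 0.15, adjusted p = 0.00104. All combined mice lay below all control mice, with replicates 4 and 5 lowest. The Aroclor mice spanned 41.9 to 54.9 CPM and the PCB 126 mice 40.02 to 73.5 CPM, the latter both below and above the control range. Eif3k is among the 4 members that stayed called and lower after GC correction (−0.59, adjusted p = 0.00614), and it stayed called in that correction without the adrenal-positive libraries as well (−0.54, adjusted p = 0.0286).

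Eif3d, a subunit that can bind the cap of certain mRNAs itself, stood at 77.3, 72.8, 87.1, 68.03 and 76.96 CPM in control and at 57.1, 50.98, 52.5, 31.6 and 39.4 CPM with the combined exposure. The groups did not overlap (log2FC −0.72 ± 0.14, adjusted p = 0.00148), and the call held after GC correction (−0.44, adjusted p = 0.0182) though not when the adrenal-positive libraries were also left out (adjusted p = 0.0656). The Aroclor mice of Eif3d were tightly grouped at 62.5 to 66.6 CPM, below every control mouse.

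Eif3g, Eif3i and Eif3b form a module of eIF3 near the mRNA entry site of the ribosome, and all of its genes were called lower. Eif3g stood at 61.7, 57.3, 65.3, 54.1 and 56.7 CPM in control and at 42.8, 42.8, 42.7, 29.2 and 32.9 CPM with the combined exposure, with no overlap (log2FC −0.63 ± 0.13, adjusted p = 0.00156). Eif3i stood at 74.3, 74.1, 87.6, 65.7 and 77.1 CPM and at 59.7, 53.2, 60.6, 34.98 and 45.2 CPM, also without overlap (log2FC −0.58 ± 0.13, adjusted p = 0.00241). Of these genes Eif3i alone was called after GC correction (−0.43, adjusted p = 0.0159), while Eif3g was at −0.25 (adjusted p = 0.105) and Eif3b, which had fallen by 0.38 on the log2 scale (adjusted p = 0.00844), was at 0.016.

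The 3 eIF3 genes called higher were Eif3e (log2FC 0.36 ± 0.10, adjusted p = 0.0112), Eif3j1 (log2FC 0.32 ± 0.095, adjusted p = 0.0145) and Eif3m (log2FC 0.27 ± 0.10, adjusted p = 0.0377), and all 3 had overlapping groups and a log2FC below 0 after GC correction. Eif3j1, one of a pair of genes for the loosely bound subunit j, shares 1107 exon bases with Spg11 on the opposite strand. Eif3m was called in 3 of the 10 fits that left out a mouse. Eif3a, the scaffold of the complex, stood at 75.7, 93.7, 129, 154 and 154 CPM in control and at 158, 168, 133, 152 and 142 CPM with the combined exposure. Control replicates 1 and 2 were low, the other control mice lay among or near the combined mice, and the change was not called (log2FC 0.31 ± 0.17, adjusted p = 0.172). Eif3c (−0.062), Eif3f (−0.21), Eif3h (−0.18) and Eif3l (−0.15) were not called, and nor was Eif3j2 (log2FC 1.17 ± 0.48, adjusted p = 0.0669), which was near the limit of detection at 0.0784 to 0.307 CPM in control.

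**Figure D2:**
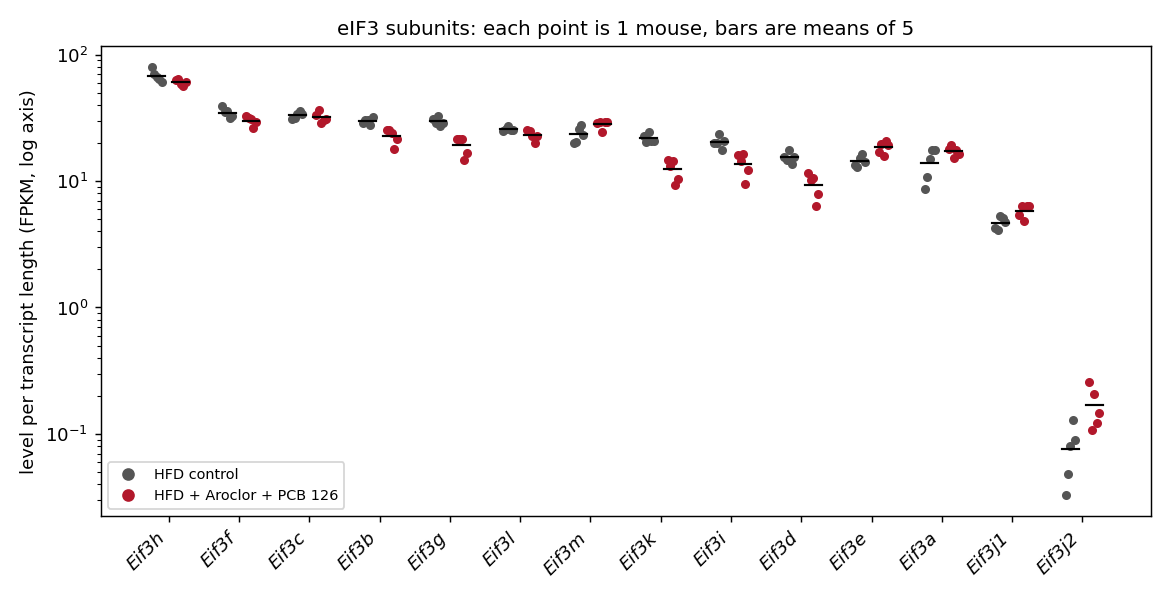
Level per kilobase of exon (FPKM, log axis) of the 14 eIF3 genes in 5 HFD control mice (grey) and 5 HFD + Aroclor + PCB 126 mice (red). Genes are ordered by the control mean, each point is 1 mouse and bars are means. The transcript length named on the axis is that of all annotated exons of the gene together. Eif3k, Eif3d, Eif3g, Eif3i and Eif3b show no overlap between the groups, while Eif3h stays the highest in FPKM and Eif3j2 is detected at under 1 FPKM.

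Per kilobase of exon the eIF3 genes were uneven in control liver, from 68.2 ± 7.22 FPKM for Eif3h down to 4.69 ± 0.514 FPKM for Eif3j1. Eif3j2 reached 0.0761 ± 0.0377 FPKM. Next to Eif3h stood Eif3f (34.7 ± 2.96 FPKM) and Eif3c (33.2 ± 1.94 FPKM), which did not differ beyond their spread. Part of this order rests on the annotated exon length. Eif3h and Eif3e, of 1612 and 6719 bases, stood at 110 and 96.6 CPM in control but at 68.2 and 14.4 FPKM. With the combined exposure the ratio of Eif3k to its partner subunit Eif3l, taken per mouse in FPKM, was 0.453 to 0.630 against 0.791 to 0.922 in control, and the ratio of Eif3e to Eif3d was 1.48 to 3.23 against 0.866 to 1.19. In both ratios the 2 groups did not overlap, and neither ratio is GC-corrected. After GC correction the log2FC was −0.59 for Eif3k and −0.087 for Eif3l. For Eif3e and Eif3d, with a GC content of 40.3% and 54.6%, it was −0.18 and −0.44, against 0.36 and −0.72 before. With Aroclor alone the first ratio was 0.586 to 0.850, which overlapped both ranges, and the second was 1.00 to 1.31, which overlapped the control range.

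Among the 7 eIF4F helicase and scaffold genes, Eif4g2 and Eif4a2 were called higher and Eif4h lower. Eif4g2 encodes a scaffold that lacks the site for eIF4E and serves cap-independent initiation. It spanned 345 to 569.8 CPM in control and 629.7 to 755 CPM with the combined exposure, without overlap (log2FC 0.58 ± 0.16, adjusted p = 0.00836, and 0.20 after GC correction). Control replicates 1 and 2 were its lowest control values. Eif4g1, the main scaffold, stood at 365, 430.02, 492, 381 and 481 CPM in control and at 537, 522, 448, 341 and 458 CPM with the combined exposure, with wide overlap (log2FC 0.10 ± 0.14, adjusted p = 0.621). The ratio of Eif4g2 to Eif4g1 per mouse in FPKM was 0.610 to 1.07 in control and 1.01 to 1.49 with the combined exposure, and these ranges overlapped.

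Eif4a1, the main helicase that unwinds the 5′ end of mRNAs, stood at 222, 215, 213, 262 and 227 CPM in control and at 228, 264, 215, 249 and 232 CPM with the combined exposure, with overlap (log2FC 0.0602 ± 0.086, adjusted p = 0.641). Its paralog Eif4a2 was called higher (log2FC 0.45 ± 0.14, adjusted p = 0.0168), with −0.092 after GC correction. The ratio of Eif4a2 to Eif4a1 per mouse in FPKM was 0.958 to 1.14 in control, 1.01 to 1.45 with Aroclor, 0.881 to 1.49 with PCB 126 and 1.24 to 1.60 with the combined exposure. The control and the combined mice did not overlap in this ratio, which is not GC-corrected. The transcripts of Eif4a2 and Eif4a1 have a GC content of 40.2% and 48.1%. After GC correction their log2FC were alike, at −0.092 and −0.094. Reads that match both paralogs may be split between them, and how they were handled is not given in the sources used here. Eif4h, a cofactor of the helicase, was called lower (log2FC −0.24 ± 0.086, adjusted p = 0.0391) in 4 of the 10 fits that left out a mouse and was at 0.13 after GC correction. Eif4b, the other cofactor (0.11, adjusted p = 0.379), and Eif4g3 (−0.22, adjusted p = 0.122) were not called.

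Of the 4 proteins that bind eIF4E, Eif4ebp1 and Eif4ebp3 were called lower. Eif4ebp1, the repressor controlled by mTOR, fell from 36.7, 31.3, 35.8, 29.4 and 32.9 CPM in the control mice to 23.6, 21.7, 24.98, 15.1 and 18.5 CPM in the combined mice, log2FC −0.68 ± 0.16, adjusted p = 0.00359. All combined mice lay below all control mice. The Aroclor mice spanned 23.1 to 34.2 CPM, from the combined to the control range, and the PCB 126 mice spanned 25.8 to 43.2 CPM, all above the combined mice. GC correction made the change larger, −0.83 (adjusted p = 0.00887), and it stayed called without the adrenal-positive libraries as well (−0.78, adjusted p = 0.0240).

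Eif4ebp3 had the largest change among called members (log2FC −1.74 ± 0.52, adjusted p = 0.0138) at a low level. It measured 1.02, 1.03, 3.32, 3.51 and 3.48 CPM in control, 0.665, 0.758, 0.809, 1.34 and 1.11 CPM with Aroclor, 0.567, 3.09, 2.58, 3.19 and 2.71 CPM with PCB 126 and 1.72, 0.852, 0.455, 0.509 and 0.175 CPM with the combined exposure. The control mice fell into low values (replicates 1 and 2) and high values, and the combined mice overlapped the low ones. Without the adrenal-positive libraries its adjusted p was 0.0525, and after GC correction 0.0611. Eif4ebp2, the most abundant eIF4E binding protein gene in control liver (47.01 ± 3.87 FPKM against 15.1 ± 1.39 FPKM for Eif4ebp1), was not called (log2FC −0.027 ± 0.10, adjusted p = 0.878), and neither was Eif4enif1, the transporter that carries eIF4E into the nucleus (log2FC −0.033 ± 0.10, adjusted p = 0.832).

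Eif5a, the factor that carries the modified amino acid hypusine and helps ribosomes past difficult peptides, stood at 221, 216, 269, 218 and 252 CPM in control and at 236, 217, 217, 145 and 192 CPM with the combined exposure. Replicates 4 and 5 of the combined group were the lowest, the other mice overlapped, and the change was not called (log2FC −0.22 ± 0.11, adjusted p = 0.129). Its paralog Eif5a2 was close to the limit of detection, at 0.104 to 0.702 CPM in control (log2FC 0.94 ± 0.48, adjusted p = 0.144). Eif6, which keeps the large ribosomal subunit from joining too early, fell from 47.1, 42.7, 53.6, 39.2 and 48.4 CPM to 37.1, 32.3, 37.2, 21.4 and 26.8 CPM with no overlap (log2FC −0.58 ± 0.14, adjusted p = 0.00443). After GC correction its log2FC was −0.046 (adjusted p = 0.833). Its transcript had the highest GC content of the members, 57.9%.

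Eif4a3, the helicase at the core of the exon junction complex, had the smallest adjusted p of all members. Its values were 35.1, 36.98, 38.3, 38.4 and 35.9 CPM in the control mice, 32.7, 31.7, 30.4, 29.1 and 29.5 CPM with Aroclor, 28.5, 34.1, 36.6, 36.4 and 31.2 CPM with PCB 126 and 29.5, 27.8, 27.5, 22.6 and 24.2 CPM with the combined exposure. Control, Aroclor and combined mice followed each other in this order, with no overlap between control and Aroclor, a slight overlap between Aroclor and the combined exposure, and PCB 126 mice overlapped each of them. The combined change was log2FC −0.49 ± 0.087, adjusted p = 0.00104, the Aroclor change (log2FC −0.27 ± 0.087, adjusted p = 0.196) did not pass the threshold, and after GC correction the combined change was −0.24 (adjusted p = 0.0543).

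**Figure D3:**
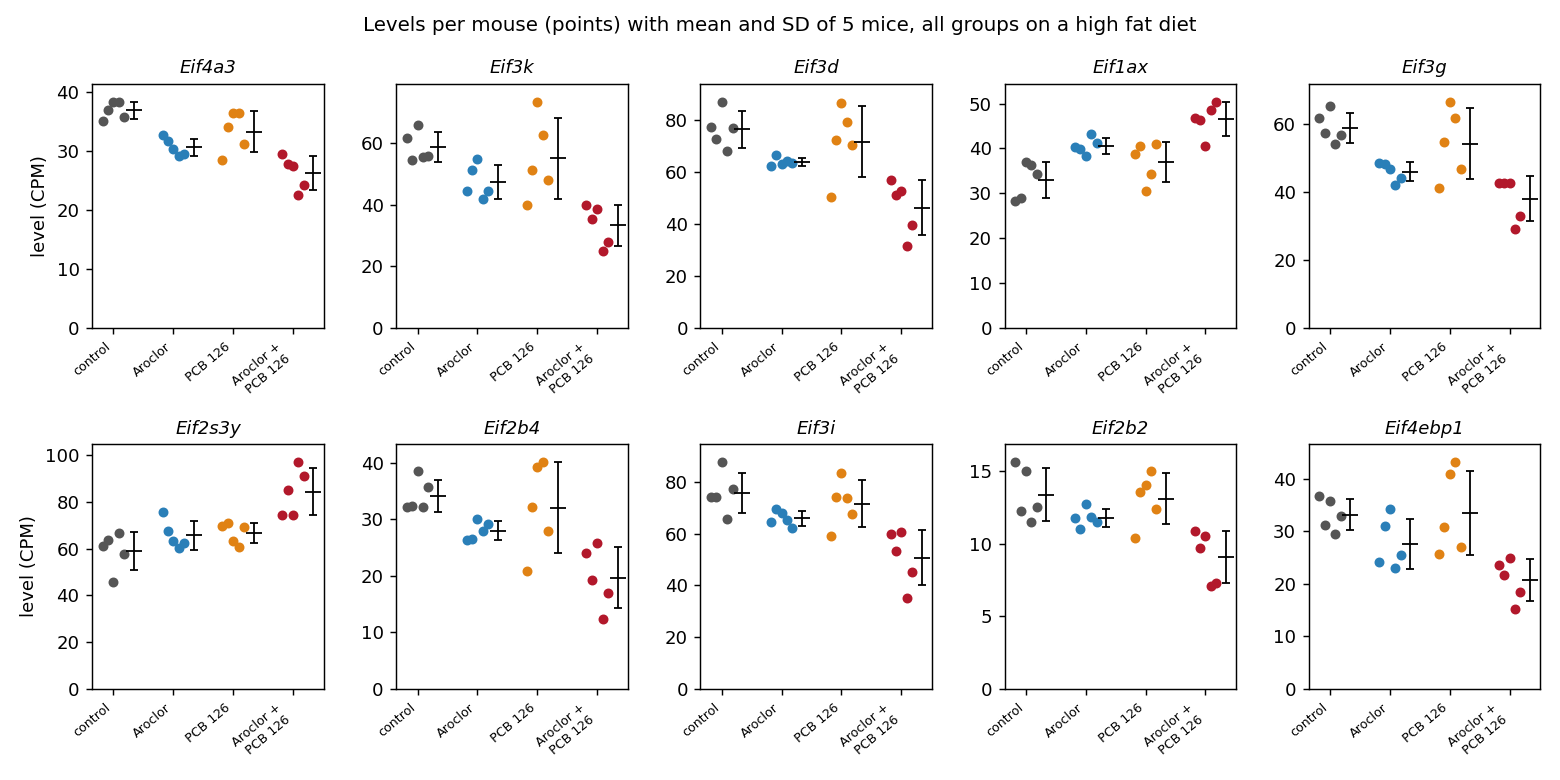
Level in CPM (vertical axis, starting at 0) of the 10 members with the smallest adjusted p for the combined exposure against control, with a panel for each gene, a point for each mouse and the mean and SD of 5 mice beside them, in the 4 groups. In every panel the combined mice do not overlap the control mice, above them for Eif1ax and Eif2s3y and below them for the other genes.

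The direction of the members followed the GC content of their transcripts. The 12 members called higher had a GC content of 39.5% to 46.8% (median 41.9%) and the 14 called lower of 48.2% to 57.9% (median 54.3%), with no overlap, and the 25 not called had 38.8% to 54.98% (median 49.9%). Across the 51 members, Pearson's r between log2FC and GC content was −0.79, and across 15516 tested genes with a known GC content it was −0.56. These are descriptions over genes that share the same 10 libraries. The control mice with the steepest slopes were replicates 1 and 2 (0.478 and 0.362). Among other members, they were the lowest control mice in Eif1a, Eif3a and Eif4g2, with a GC content of 39.97%, 44.5% and 43.2%. They were also the lowest in Eif4ebp3 and Eif4h, whose GC content is high, 53.5% and 55.5%. The combined mice with the most negative slopes were replicates 4 and 5 (−0.643 and −0.486), the lowest combined mice in Eif3k, Eif3d, Eif3g, Eif3i, Eif2b4, Eif2b2, Eif2b5, Eif4ebp1, Eif6 and Eif4a3, among other members. Among called members Eif4ebp1 had the lowest GC content of those lower, 48.2%, and Eif2b3 the highest of those higher, 46.8%. With the slope of the library entered as a covariate in place of the correction, 0 members and 528 of all genes were called by edgeR. At an unadjusted p under 0.05 stood 2 members, both lower, and the share of all genes at that level is not given here. In that fit the covariate and the group are hard to separate, since the slopes of these groups did not overlap.

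**Figure D4:**
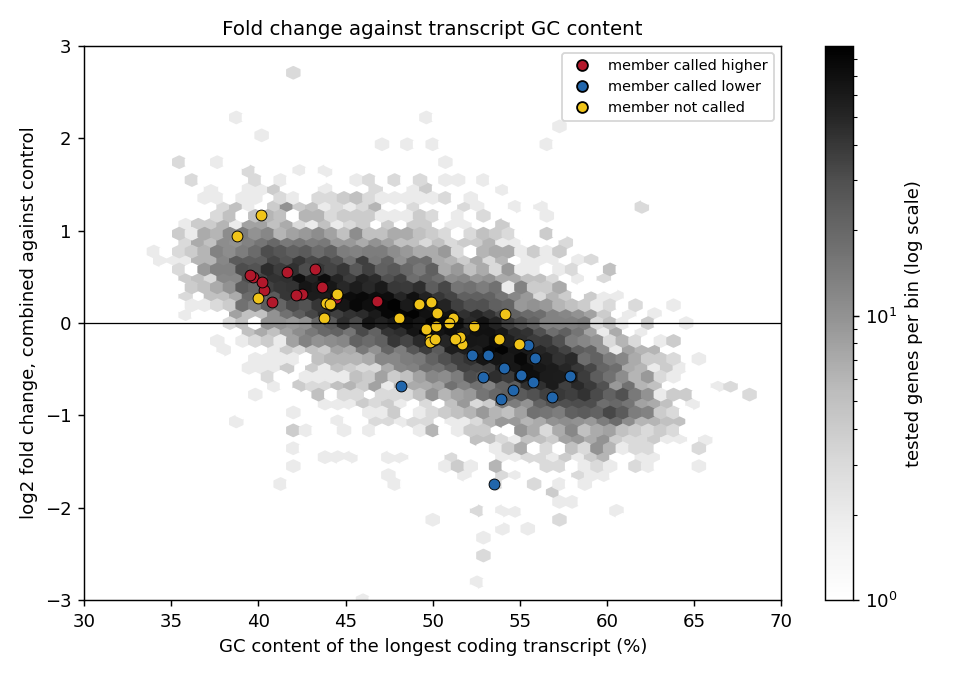
Log2 fold change of HFD + Aroclor + PCB 126 against HFD control (vertical axis) against the GC content of the longest coding transcript in percent (horizontal axis), with members as circles over the density of all tested genes (grey, log scale). Members called higher (red) lie between 39.5% and 46.8% GC and members called lower (blue) between 48.2% and 57.9%, and the cloud of all genes slopes the same way.

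With a single exposure no member was called. For HFD + Aroclor against control edgeR called 0 members and 0% of all genes, with 5 members at an unadjusted p under 0.05 (Eif4a3, Eif1ax, Eif3g, Eif4ebp3 and Eif3k), a level that 17.2% of all genes reached. DESeq2 called 0 members and 56 of all genes. The comparison shares its control mice with that of the combined exposure, and for Eif4a3 the log2FC of −0.27 with Aroclor stands beside −0.49 in the combined mice. The next in order were Eif1ax (0.30, adjusted p = 0.198), Eif3g (−0.36), Eif4ebp3 (−1.38) and Eif3k (−0.31). For HFD + PCB 126 against control edgeR called 0 members and 0.116% of all genes, with 2 members at an unadjusted p under 0.05, Eif2b3 (log2FC 0.24 ± 0.091, adjusted p = 0.236) and Eif2a (log2FC 0.24 ± 0.11, adjusted p = 0.315), against 14.7% of all genes. DESeq2 called 0 members and 263 of all genes. The median log2FC of the members was −0.05 with Aroclor and 0.0094 with PCB 126, against −0.01 and −0.02 over all tested genes.

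Against the single exposures directly, the combined exposure differed from PCB 126 alone in 18 members, 5 higher and 13 lower, where 16.7% of all genes were called, 5.64% higher and 11% lower. The smallest adjusted p was that of Eif3k (log2FC −0.73 ± 0.15, adjusted p = 0.0136), followed by Eif3d (−0.63) and Eif4ebp1 (−0.69). The 10 others called lower were Eif2b4 (−0.70), Eif3g (−0.51), Eif2b2 (−0.52), Eif3i (−0.50), Eif4a3 (−0.34), Eif6 (−0.52), Eif2d (−0.40), Eif2b5 (−0.33), Eif4ebp3 (−1.73) and Eif3b (−0.33). The 5 higher members were Eif3j1 (0.32), Eif1ax (0.33), Eif2s3y (0.34), Eif4g2 (0.50) and Eif5 (0.41). This comparison rests on few libraries: 0 members were called without PCB 126 replicate 3, 1 without combined replicate 5, 2 without PCB 126 replicate 4 and 9 without combined replicate 4. Without both adrenal-positive libraries 10 were called, all lower. How many of all genes were called in these fits is not given here, so the drop cannot be read as particular to the members. After GC correction edgeR called 0 members and 0% of all genes, with 14 members at an unadjusted p under 0.05. The share of all genes at that unadjusted level after GC correction is not given here, so the 14 cannot be read as particular to the members.

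Between the combined exposure and Aroclor alone, edgeR called 0 members against 0.412% of all genes, with 21 members and 23.4% of all genes at an unadjusted p under 0.05. DESeq2 called 5 members and 1011 of all genes. The nearest were Eif2b3 (log2FC 0.34 ± 0.091, adjusted p = 0.0629), Eif2s3y (0.36) and Eif3k (−0.51, adjusted p = 0.0754). Leaving out combined replicate 3 alone brought 8 members past the threshold. The share of all genes past it in that fit is not given here. The interaction, which asks whether the combined log2 effect departs from the sum of the single effects, was called for 0 members and 0% of all genes, with 1 member, Eif3j1 (log2FC 0.32 ± 0.13, adjusted p = 0.368), and 11.9% of all genes at an unadjusted p under 0.05. DESeq2 called 0 members and 1 gene in all. The summed level of the members was 4983 ± 372 CPM (SD, n = 5) in control, 5085 ± 258 with Aroclor, 5181 ± 336 with PCB 126 and 5361 ± 294 with the combined exposure, and the 4 ranges overlapped.

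Other genes of the pathway, from lists that are not members, also split with the combined exposure. Of all tested genes, 15.8% were called higher in this comparison and 17% lower, and 3.37% and 5.43% after GC correction. Of 20 tested initiation partners, 7 were called higher and 3 lower, with Ddx3x, a helicase that aids scanning, rising from 91.1 ± 27.3 CPM (SD, n = 5) to 177 ± 29.8 CPM (log2FC 0.96 ± 0.24, adjusted p = 0.00570) and Mknk2, a kinase of eIF4E, falling from 136 ± 35.7 CPM to 76.7 ± 15.4 CPM (log2FC −0.83 ± 0.19, adjusted p = 0.00320). The median log2FC of the partners was 0.15. After GC correction 0 were higher and 2 lower, Paip2 (−0.35) and Mcts2 (−0.50). Of 9 elongation and termination genes 2 were called higher and 3 lower, among them Eef2, the translocase (log2FC −0.55 ± 0.15, adjusted p = 0.0101), and 0 in either direction after GC correction. Their median log2FC was 0.0798. Of the 3 eIF4E genes left out by the rule, Eif4e (0.31) and Eif4e3 (0.95) were called higher and Eif4e2 (−0.22) lower. After GC correction Eif4e3 (0.62, adjusted p = 0.0404) and Eif4e2 (−0.30, adjusted p = 0.0252) were still called, and Eif4e was at −0.21 (adjusted p = 0.0736). Eif4e3 was also called higher with PCB 126 alone (1.05, adjusted p = 0.0255).

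The stress response list holds mostly genes that rise when eIF2 is phosphorylated and translation of ATF4 increases. It also holds Ppp1r15b, which is not counted here as such a gene. The list is given because the kinases act through this response. Of 13 genes tested, 4 were called lower and 1 higher, in a comparison where 17% of all genes were called lower and 15.8% higher. The median log2FC of the list was −0.52 against −0.0010 over all tested genes, both before GC correction. After it, 2 of the 13 genes were called higher and 1 lower, beside 3.37% and 5.43% of all genes. Ddit3, the stress factor CHOP, fell from 8.19 ± 3.05 CPM to 3.20 ± 1.39 CPM (log2FC −1.35 ± 0.29, adjusted p = 0.00228) and stayed called after GC correction (−1.02, adjusted p = 0.0266). Ddit3 was also lower, though not called, with each single exposure. It stood at 3.12 ± 0.434 CPM with PCB 126 alone (log2FC −1.39, adjusted p = 0.0506). With Aroclor it stood at 4.00 ± 1.52 CPM (log2FC −1.03, adjusted p = 0.184). Atf5 (−1.25), Trib3 (−0.88) and Chac1 (−1.42) were the other 3 called lower with the combined exposure and were not called after the correction. Atf5 was at −0.82 with PCB 126 alone (adjusted p = 0.0506) and at −0.46 with Aroclor (adjusted p = 0.218). Ppp1r15b, the subunit that directs dephosphorylation of eIF2, was called higher (log2FC 0.44 ± 0.10, adjusted p = 0.00233, and 0.33 after GC correction), and Sesn2 was called higher only after it (0.69, adjusted p = 0.0367). Atf4 itself was not called (log2FC −0.25 ± 0.15, adjusted p = 0.214). Of the enzymes that make hypusine for Eif5a, Dohh was called lower (log2FC −1.38 ± 0.34, adjusted p = 0.00447) and Dhps was not (−0.16), and neither was called after GC correction.

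Markers of the cell types in liver moved in part with the combined exposure, where 15.8% of all tested genes were called higher and 17% lower. All 5 hepatocyte markers were present, summing to 75419 to 83928 CPM in control and 70543 to 98281 CPM with the combined exposure, with Apoa1 (−0.78) and Ttr (−0.70) called lower. Of 5 stellate cell markers 3 were called higher and 1 lower, and 1 higher and 0 lower after GC correction. Their sum of 255 to 317 CPM lay above the 121 to 233 CPM of control. Its largest part was Dcn, with a mean of 131 CPM in control and 198 CPM with the combined exposure. Col1a1 stood at 7.94 and 7.87 CPM, and Des, the marker called lower, at 6.02 and 2.29 CPM. After GC correction Dcn was at log2FC 0.16 (adjusted p = 0.641), and the marker still called higher was Reln (0.48, adjusted p = 0.0467). The sums are not GC-corrected. The sums of the macrophage markers (230 to 306 against 168 to 400 CPM, 1 of 5 called higher), the endothelial markers (102 to 125 against 79.0 to 160 CPM, 1 of 4 called lower) and the lymphocyte markers (14.4 to 17.9966 against 7.54 to 15.3 CPM, 1 of 4 called higher) overlapped control, as did the cholangiocyte markers (3.24 to 7.73 against 3.93 to 8.21 CPM, 0 of 4 called). After GC correction 1 hepatocyte marker, Ttr, and 1 endothelial marker, Stab2, were called lower, and 0 macrophage, lymphocyte or cholangiocyte markers were called. No marker had a mean of 0 in either group. The part that the makeup of the tissue has in the members' changes was not tested.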

How the data were processed

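The authors prepared stranded libraries from polyadenylated liver RNA of 20 mice, sequenced them in 2 runs, checked them with FastQC 0.10.1, used STAR 2.6 for alignment to GRCm38.p6 and HTSeq 0.10.0 for counts per Ensembl gene, as their processing notes and methods give it. The deposited values are these raw counts, before any normalization. Which annotation was used, and whether counting respected strand, is not given in the sources used here. Symbols, coordinates, exon lengths and transcript GC content (of the longest coding transcript) were taken from GENCODE release M21, and promoters from RefSeq on GRCm38.p6. No promoter was matched for Eif1a, Eif2b3, Eif3e, Eif3h, Eif3i, Eif3j2, Eif4ebp1, Eif4ebp3, Eif4g2 and Eif6.

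A gene entered the tests where its counts summed to 10 or more. R 4.3.3 and edgeR 4.0.16 were used to scale libraries by TMM and to fit all 4 groups together, which left 16 residual degrees of freedom. Its quasi-likelihood test was applied, p was adjusted over the 15522 genes (Benjamini-Hochberg), and a gene was called at an adjusted p under 0.05. Total counts of 21836506 to 36854887 put a gene at 1 CPM above 10 counts in every library, and the standard errors cover counting error and the spread between mice. Within groups, each of 40 library pairs was farther apart than sampling noise (chi-square over its degrees of freedom at least 19.7), and no library was merged with another. CPM and FPKM use TMM library sizes.

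The members and the gene lists were chosen with earlier results of these data known. Every member is named with its call for the combined exposure, and values per mouse are given for the 10 members with the smallest adjusted p there and for Eif2s1, Eif2ak3, Eif2b5, Eif3a, Eif4a1, Eif4ebp1, Eif4g1, Eif5a and Eif6. Values per mouse or ranges of Eif5, Eif1a, Eif2ak1, Eif4g2 and Eif4ebp3 and the ratios between members were added after their values were seen. Of 21 initiation partners 20 were tested, since Gcn1 appears only as Gcn1l1.

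Alternatives were RLE size factors, no filter, a filter of at least 1 FPKM in 3 libraries, the Wald test of DESeq2 1.42.0, a fit of only the groups compared, the replicate number as a block, each mouse left out in turn, and a GC correction that entered a smooth of each library's deviation over GC content (6 degrees of freedom) as an offset. The choice of the longest coding transcript for GC content, the list of adrenal genes, the fits without both adrenal-positive libraries, the GC slope as a covariate and the mean GC over all transcripts were added after seeing the data. The tests were first tried on simulated data with known changes. Replicate numbers name mice and mark no shared animal. The title of PCB 126 replicate 2 carries another number in its library name, and the replicate number of the title was used.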

Additional observations from a re-analysis of the deposited data

Results flagged for a closer look

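Among 204 sets of 5 mice (51 members in 4 groups), 12 held a mouse whose gap to its neighbour was large for the range of the 5 values by Dixon's criterion, where chance alone gives about 1 in 20 sets. In HFD control replicate 4, which carried adrenal genes, 3 members stood above the other control mice: Eif2a at 57.9 CPM (others 44.5 to 46.3), Eif2ak2 at 24.1 CPM (16.5 to 18.04) and Eif4a1 at 262 CPM (213 to 227). In HFD control replicate 5, Eif2ak3 stood above at 21.8 CPM (9.64 to 12.2). With the combined exposure, replicate 3 lay below the other mice in Eif2s1, at 43.3 CPM (49.2 to 51.6), and in Eif3m, at 62.7 CPM (75.1 to 76.5), and replicate 2 lay above in Eif2ak3, at 16.4 CPM (13.0 to 14.0). With Aroclor, replicate 1 lay above in Eif4a2, at 429.9 CPM (280.3 to 317), and in Eif3l, at 102 CPM (85.6 to 90.2), and replicate 2 lay below in Eif3b, at 81.1 CPM (92.0 to 95.8). With PCB 126, replicate 1 lay below in Eif4h, at 122 CPM (140.4 to 146), and in Eif4ebp3, at 0.567 CPM (2.58 to 3.19). The 3 flags in the control library with adrenal genes all lie above, and no set was flagged in the combined library with adrenal genes.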

How the results depend on the processing

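In the fit with the replicate block, 23 members were called for the combined exposure against control, 18 against PCB 126 and 1 against Aroclor. The numbers were not taken as a paired design, since same-numbered mice are different animals. Of 30 same-numbered pairs of mice, 12 correlated over 0.1 (range −0.31 to 0.55), which on its own cannot decide whether the numbers mark a pairing. Against Aroclor, 5 members were called with the filter of 1 FPKM and 5 with DESeq2. Against PCB 126, 8 were higher with that filter. In the fit of only the groups compared, 7 members were higher against control. Leaving out each mouse in turn gave 17 to 27 members against control (4 to 14 higher), 0 to 20 against PCB 126 (0 to 6 higher, 0 to 15 lower) and 0 to 8 against Aroclor, and 17 of the 26 called members stayed called in all 10 fits against control. The shares of all genes called in these leave-one-out fits are not given here. Without both adrenal-positive libraries 10 were called against PCB 126, 0 of them higher. The members called against control were 5 (0 higher, 5 lower) with GC correction, 5 (0 and 5) with GC correction and the replicate block, 3 (0 and 3) with GC correction and no adrenal-positive library, 13 (2 higher) with the mean GC of all transcripts, and 0 (0 and 0) with the GC slope as covariate. In these fits the members called against PCB 126 were 0, 2 (0 higher, 2 lower), 0, 1 (1 higher, 0 lower) and 0. Depth limits Eif3j2 and Eif5a2 most, which had under 1 CPM in every mouse.

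Among members called with or without the alternative, the log2FC against control that changed sign were, with GC correction, Eif2s1 −0.28, Eif3e −0.18, Eif2s2 −0.15, Eif3j1 −0.11, Eif4a2 −0.092, Eif2s3y −0.0705, Eif3m −0.069, Eif1ax −0.0597, Eif3b 0.016 and Eif4h 0.13. With the replicate block as well they were Eif2s1 −0.27, Eif3e −0.18, Eif2s2 −0.15, Eif3j1 −0.11, Eif4a2 −0.092, Eif3m −0.066, Eif2s3y −0.061, Eif1ax −0.059, Eif3b 0.016 and Eif4h 0.13. With GC correction and no adrenal-positive library they were Eif2s1 −0.28, Eif3e −0.20, Eif2s2 −0.16, Eif3j1 −0.13, Eif2s3y −0.11, Eif4a2 −0.11, Eif1ax −0.063, Eif3m −0.041, Eif2b3 −0.022, Eif3b 0.049 and Eif4h 0.18. With the mean GC of all transcripts they were Eif5b −0.37, Eif3e −0.29, Eif3m −0.23, Eif2s1 −0.22, Eif2s3y −0.20, Eif2s2 −0.14, Eif2a −0.10, Eif2b3 −0.065 and Eif4a2 −0.033. With the GC slope as covariate they were Eif4a2 −0.23, Eif4g2 −0.13, Eif2s2 −0.10, Eif3m −0.052, Eif2s1 −0.025, Eif3j1 −0.018, Eif2a −0.011, Eif5 −0.0015, Eif3e −0.000465, Eif6 0.026, Eif4ebp1 0.084 and Eif2d 0.13. The cause was not tested. No called member changed sign with RLE size factors, no filter, the filter of 1 FPKM, DESeq2, only the groups compared, the replicate block without GC correction, or any mouse left out.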
